A study of Mus musculus with 12 samples.

Results

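The response of brown fat to a short cold exposure in control mice was read from 6 of the 12 arrays of a study of the ER protein Sel1L. The arrays were chosen by their titles, 3 from mice at 4 °C and 3 from mice at room temperature, each from the brown adipose tissue of 1 mouse. These mice carried the floxed Sel1L alleles (Sel1L f/f, C57BL/6J background) without the Adiponectin-Cre transgene, so their Sel1L gene was intact, and the labels call them wildtype. All mice fasted for 5 h, either at room temperature or at 4 °C, so both groups were fasted and their labels differ in temperature alone. The other 6 arrays came from littermates that lost Sel1L in adipocytes through Adipoq-Cre, 3 at each temperature. The labels used here give neither age nor sex.

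Values are log2 expression after RMA, a method that subtracts background, brings the arrays to one distribution and combines the probes that read the same target. Differences are 4 °C minus room temperature with the standard error (SE) of the limma model, and n is 3 arrays per group throughout. A probe set with an adjusted p (Benjamini-Hochberg, over 23521 probe sets with exactly 1 gene symbol) under 0.05 is called and is said to rise or fall. Readings near the array medians of about 2 may be background, so a fold change that starts or ends there is a lower estimate. In whole tissue, fewer cells of a type and less RNA per cell cannot be told apart.

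Brown fat burns fuel to make heat. Cold reaches it through noradrenaline from sympathetic nerves, which acts on adrenergic receptors coupled to adenylyl cyclase. The cAMP formed activates protein kinase A, which starts lipolysis and phosphorylates CREB, a transcription factor of the cAMP response element. Fatty acids then fuel the mitochondria and open UCP1, the protein that lets protons leak back across the inner membrane as heat. Genes for the coactivator PGC1-alpha and the thyroid hormone deiodinase DIO2 are known early targets of this signal.

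1 array carried conflicting labels and another stood apart, and both bear on every value that follows. Room temperature replicate 3 is titled and characterised as room temperature, while its source name says 4 °C. Each wildtype array was therefore placed between the means of the other 5 wildtype arrays, where 0 is their room temperature mean and 1 their 4 °C mean. The probe sets used were those called by at least 2-fold when the 12 arrays were fitted without that array. Room temperature replicates 1, 2 and 3 had median positions of 0.0176, 0.0602 and 0.175, and 12.3% of the 746 probe sets called by at least 2-fold without it lay nearer the 4 °C mean in replicate 3. The array thus read like room temperature for most genes, and it was kept there. At 4 °C, replicates 1, 2 and 3 had positions of 1.00, 1.07 and 0.667, so replicate 3 lay short of the other 4 °C arrays. On the first principal component of the wildtype arrays (53.4% of the variance) replicate 3 scored 14.6, against 35.15 and 40.87 for the other 4 °C arrays.

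**Figure D1:**
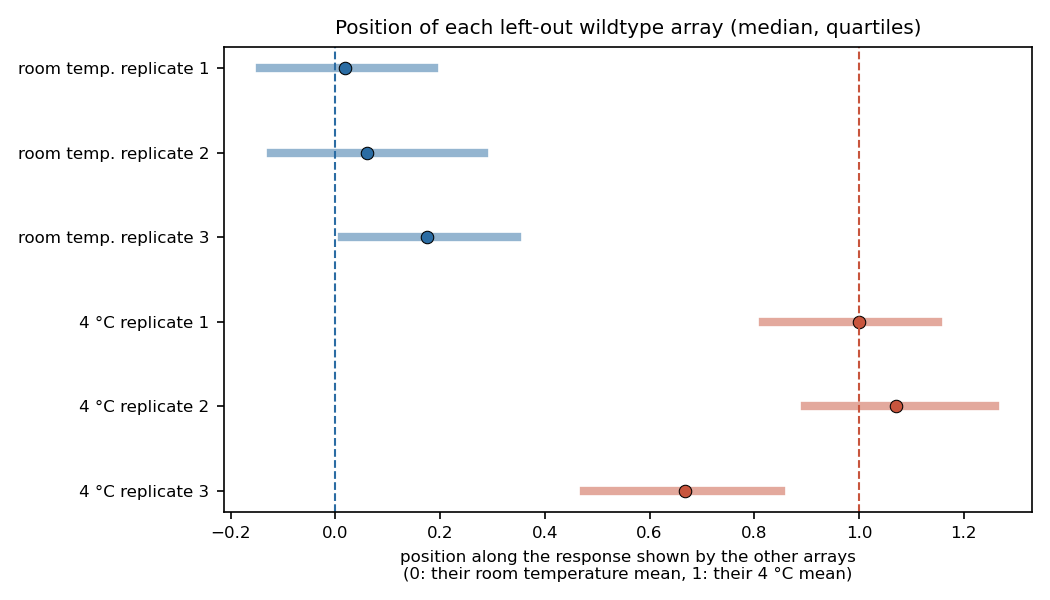
Median position (points) and quartiles (bars) of each wildtype array along the cold response estimated from the other 5 arrays, with dashed lines at the means of the other arrays. The room temperature arrays lie between 0.0176 and 0.175, and 4 °C replicate 3 lies at 0.667, below the 1.00 and 1.07 of the other 4 °C arrays.

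Markers of the cell types that tissue can hold were read beside these positions. Adipocyte markers lay on average between 10.32 and 10.37 in the room temperature arrays and between 9.93 and 10.07 in the cold ones, with 3 of 10 called lower (Cebpa, Lipe and Cidec). The fall of Cidec was lost without any 1 of 5 wildtype arrays (adjusted p up to 0.123). Of the 22 skeletal muscle markers limma called 0, with 1 at an unadjusted p under 0.05, but their mean varied widely, between 6.31 and 7.16 at room temperature and between 4.81 and 7.83 in the cold. A score over their 23 probe sets read 6.10, 6.58 and 6.95 at room temperature and 5.28, 4.68 and 7.62 at 4 °C, so it was highest in 4 °C replicate 3 and lowest in the other 4 °C arrays. The difference of -0.683 had an exact two-sided permutation p of 0.5, where 3 against 3 arrays cannot go below 0.1. T and B cell markers stayed between 1.98 and 2.29, at the level of the array medians, in both groups. Of 12 endothelial markers, 4 were called higher and 2 lower, and of 12 fibroblast and preadipocyte markers limma called 0, with 0 at an unadjusted p under 0.05. The study's design text names brown adipocytes that were isolated, but the labels name tissue, and muscle and endothelial markers were well above the array medians. With the muscle score in the model, 18 of the 278 calls of named genes were lost and 0 reversed.

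In the wildtype contrast 2606 probe sets were called, 11.1% of those tested, with 1140 higher at 4 °C (4.85%) and 1466 lower (6.23%). At least 2-fold, 313 rose and 373 fell. Calls were more frequent among probe sets with a mean of at least 4 on the log2 scale, where 24% were called, 11.4% higher and 12.6% lower. These last shares are the background against which the lists of named genes are read, since most members are that bright. The median difference over all probe sets was -0.01. Of the called probe sets, 98.7% had wildtype groups that did not overlap, against 25.9% of all probe sets.

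**Figure D2:**
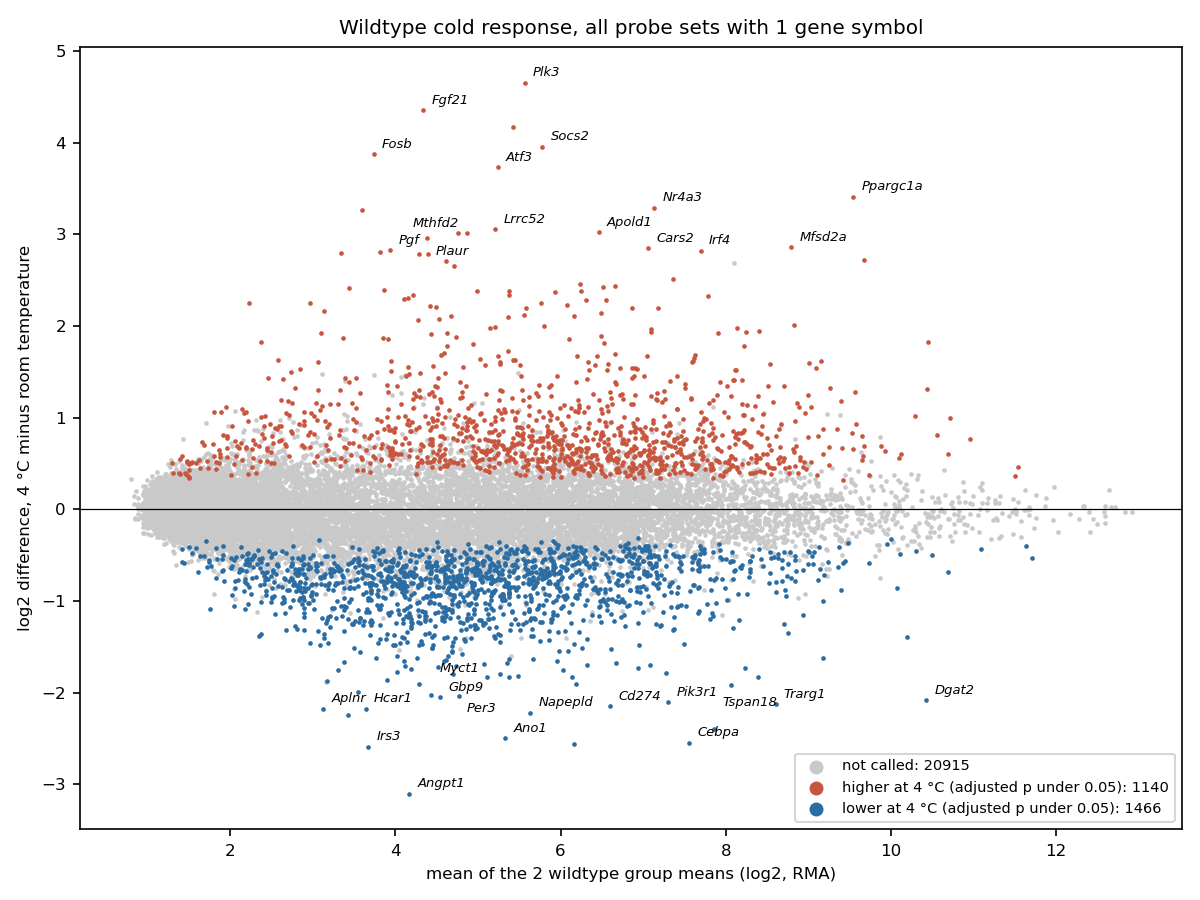
Log2 difference, 4 °C minus room temperature, against the mean of both wildtype groups (log2), for each of 23521 probe sets, with called probe sets in red (1140 higher) and blue (1466 lower) and the 15 largest rises and 15 largest falls of named genes labelled. Ppargc1a and Dgat2 stand out as bright genes with large differences.

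Plk3, a stress-responsive polo-like kinase, read 2.99, 3.03 and 3.68 at room temperature and 7.94, 7.71 and 8.02 at 4 °C. That is the largest rise of any named gene, 4.66 ± 0.20 SE (adjusted p = 2.9e-07). Fgf21, a secreted metabolic hormone, read 1.57, 2.13 and 2.79 at room temperature, where it could not be told from background, and 6.67, 6.52 and 6.35 at 4 °C. It rose by 4.35 ± 0.35 (adjusted p = 3.1e-05). Socs2, a feedback inhibitor of growth hormone and cytokine signals, rose from 3.42, 3.90 and 4.07 to 8.34, 8.16 and 6.76, and its second probe set rose by 2.39 ± 0.24. Its lowest 4 °C reading was in replicate 3, the array with the highest muscle score, and still lay far above room temperature.

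Other genes among the 15 largest rises had roles outside transcription. Mfsd2a, a transporter of lysophospholipids, rose by 2.86 ± 0.52. Cars2, the mitochondrial cysteinyl-tRNA synthetase, rose by 2.85 ± 0.30, Plaur, the urokinase receptor, by 2.96 ± 0.45 and Apold1, an early response gene of endothelium, by 3.02 ± 0.30. Lrrc52, an auxiliary subunit of potassium channels, rose by 3.06 ± 0.57. In each of them the groups did not overlap, which the rule for these 15 genes required. The 15 rises and the 15 falls all kept their call when any single wildtype array was left out (adjusted p up to 0.0226 for rises and 0.0139 for falls). Adding the muscle score left them called as well. These genes were picked as the largest calls of the same arrays, so neither result is separate support. Of all 278 called genes of the lists and of the largest rises and falls together, 183 held without each wildtype array.

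Receptors and the cAMP pathway are the entry of the cold signal. In both of their lists the share called, 28.6% and 29.4%, was near the 24% among all probe sets with a mean of at least 4. Of 14 measured receptor and G protein genes 3 were called higher and 1 lower, with a median difference of -0.07. Hcar1, the lactate receptor that restrains lipolysis, read 5.39, 4.24 and 4.54 at room temperature and 2.29, 2.10 and 3.26 at 4 °C, a difference of -2.17 ± 0.35 (adjusted p = 0.00213). Npr3, the clearance receptor that removes natriuretic peptides, read 6.78, 7.35 and 8.18 at room temperature and 10.00, 10.18 and 7.95 at 4 °C. Its groups overlap through replicate 3 of each group, and its rise of 1.94 ± 0.48 was lost without either of the first 2 arrays of either group (adjusted p up to 0.0968) and was 3.03 without both replicate 3 arrays (adjusted p = 8.59e-05). The 3 higher calls of the list fell to 0 when room temperature replicate 1 or 2 or 4 °C replicate 1 was left out, and to 1 without 4 °C replicate 2.

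Within the cell, 6 of 34 genes of adenylyl cyclases, protein kinase A and cAMP feedback rose and 4 fell, with a median of 0.01. Sik1, a kinase induced by cAMP that restrains CREB coactivators, read 6.65, 6.90 and 7.89 at room temperature and 9.44, 9.11 and 8.82 at 4 °C, a rise of 1.98 ± 0.28 (adjusted p = 0.000926). Crem, which encodes cAMP-inducible repressors, rose by 0.71 ± 0.15 and the phosphodiesterase Pde4d by 0.58 ± 0.11, both from low readings. Members of the kinase cascade were called in both directions. Prkar1a, a regulatory subunit of protein kinase A, rose by 0.66, a call lost without any 1 of 4 wildtype arrays (adjusted p up to 0.138). Adcy9, an adenylyl cyclase, fell by 1.66 on the log2 scale (SE 0.20), from readings of 6.81, 6.73 and 6.82 to 5.23, 4.72 and 5.44. Prkaca, the catalytic subunit of protein kinase A, fell by 1.00 (SE 0.21), and Prkar2b, a regulatory subunit of fat, by 0.68 (SE 0.13). Neither of these groups overlapped.

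Promoters were read for the element that CREB binds. The full cAMP response element, TGACGTCA, was searched on both strands between 250 bases before and 50 bases after each RefSeq start (assembly GRCm38.p6, 20611 promoters of 16990 tested genes). It stood in 57 of 1101 promoters of called risers (5.18%), 26 of 1498 promoters of called fallers (1.74%) and 205 of 6109 promoters of uncalled genes with a mean of at least 4 (3.36%). Over all tested genes the share was 2.32%. The shorter form TGACG, which the full element contains, stood in 38.6%, 25.5%, 32.9% and 24.2% of the same 4 sets. The E-box CACGTG of clock and other factors stood in 12.5%, 8.48%, 10.7% and 8.07%, and the NR4A site AAAGGTCA in 1.45%, 1.07%, 0.818% and 1.39%. The 4 sets had a median GC content of 61.0%, 60.7%, 61.7% and 56.7%. A match is a string in a sequence and no measured binding.

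Of called risers, 52 genes held the full element anywhere in the searched window, which reaches past the start. A narrower listing, of risers with the element before an annotated start, holds 44 genes. That listing did not cover every chromosome. The 6 with the largest rises in it are printed here because they show the same 8 letters in genes of unlike function. Each run is 80 bases from RefSeq's GRCm38.p6, written 5′ to 3′ on the strand of the gene and ending before the start of transcription, with the element in capitals. Maff lies on the plus strand at chr15:79347440-79347519, Dio2 on the minus strand at chr12:90739090-90739169, Slc25a25 on the minus strand at chr2:32424173-32424252 and Dusp8 on the minus strand at chr7:142095304-142095383. Errfi1 lies on the plus strand at chr4:150854983-150855062 and Dnajc27 on the plus strand at chr12:4082494-4082573. The first base of the element stands 29, 95, 150, 63, 51 and 16 bases before the start in this order.
Maff: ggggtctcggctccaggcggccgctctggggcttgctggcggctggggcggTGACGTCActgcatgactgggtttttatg
Dio2: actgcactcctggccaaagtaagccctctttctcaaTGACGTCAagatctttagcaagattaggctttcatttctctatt
Slc25a25: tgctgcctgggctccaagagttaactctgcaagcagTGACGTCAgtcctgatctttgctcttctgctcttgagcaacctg
Dusp8: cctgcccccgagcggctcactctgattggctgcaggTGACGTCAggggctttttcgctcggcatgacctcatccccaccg
Errfi1: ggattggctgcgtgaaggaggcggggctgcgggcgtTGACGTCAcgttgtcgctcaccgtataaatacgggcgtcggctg
Dnajc27: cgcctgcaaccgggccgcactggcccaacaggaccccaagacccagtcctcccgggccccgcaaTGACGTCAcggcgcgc

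All 6 of these genes were chosen as called risers, and their groups did not overlap, like those of 98.7% of all called probe sets. Maff, a small Maf transcription factor, read 2.33, 2.17 and 2.73 at room temperature and 5.31, 5.41 and 4.93 at 4 °C, a rise of 2.81 ± 0.28. Slc25a25, a calcium-regulated carrier of ATP-Mg and phosphate, rose by 2.33 ± 0.26, and Dusp8, a phosphatase of stress-activated kinases, by 2.16 ± 0.22 from readings near background. Errfi1, an inhibitor of EGF receptor kinases, rose by 1.57 ± 0.22, and Dnajc27, which was outside the rule for named genes and is shown for its promoter, by 1.46 ± 0.28 (adjusted p = 0.00503).

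The best known cold genes of brown fat, Ppargc1a and Ucp1, hold no full element in the RefSeq windows searched here but the shorter TGACG each. Sequence outside these windows, at any other start included, was not searched, and a full element may lie there. A stretch of 100 bases around it is shown for comparison with the 6 above, with those letters in capitals. Ucp1 lies on the plus strand at chr8:83290153-83290252 and Ppargc1a on the minus strand at chr5:51567726-51567825, where the capitals read CGTCA because it stands on the opposite strand.
Ucp1: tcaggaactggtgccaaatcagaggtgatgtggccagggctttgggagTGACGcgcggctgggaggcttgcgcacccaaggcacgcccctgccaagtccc
Ppargc1a: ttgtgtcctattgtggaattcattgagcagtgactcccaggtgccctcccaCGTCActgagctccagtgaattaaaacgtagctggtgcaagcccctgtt

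The coactivator gene rose, while that of the uncoupling protein did not pass the test. Ppargc1a, which encodes PGC1-alpha, read 8.08, 7.26 and 8.17 at room temperature and 11.49, 11.31 and 10.94 at 4 °C, a 10.6-fold rise (3.41 ± 0.25, adjusted p = 2.09e-05). All 3 cold arrays lay far above all 3 others. Ucp1 read 12.60, 12.38 and 12.63 at room temperature and 12.83, 12.69 and 12.71 at 4 °C. Its difference of 0.21 ± 0.11 was not called (adjusted p = 0.309, 95% interval -0.04 to 0.45), although the groups did not overlap. These readings lie near the highest value of the table, 13.02.

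Among 16 measured thermogenic effectors 3 rose and 3 fell, with a median of -0.08. Dio2, which activates thyroid hormone within the cell, read 8.92, 7.42 and 8.60 at room temperature and 11.18, 11.12 and 10.81 at 4 °C, a rise of 2.72 ± 0.35 (adjusted p = 0.000503). A second Dio2 probe set stayed at background, with means of 1.67 and 1.64, and did not follow it. Elovl3, the elongase of very long fatty acids that marks stimulated brown fat, rose by 1.83 ± 0.22, with readings of 9.64, 9.46 and 9.49 against 11.32, 11.34 and 11.40. The cold arrays of Elovl3 lay within a narrow band, 4 °C replicate 3 included. Them4, an acyl-CoA thioesterase, rose by 1.22 ± 0.27. Fbxo31, a subunit of a ubiquitin ligase, fell by 1.47 on the log2 scale (SE 0.27). Cidea, a lipid droplet protein of brown fat, differed by -0.09 ± 0.10 (adjusted p = 0.653).

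**Figure D3:**
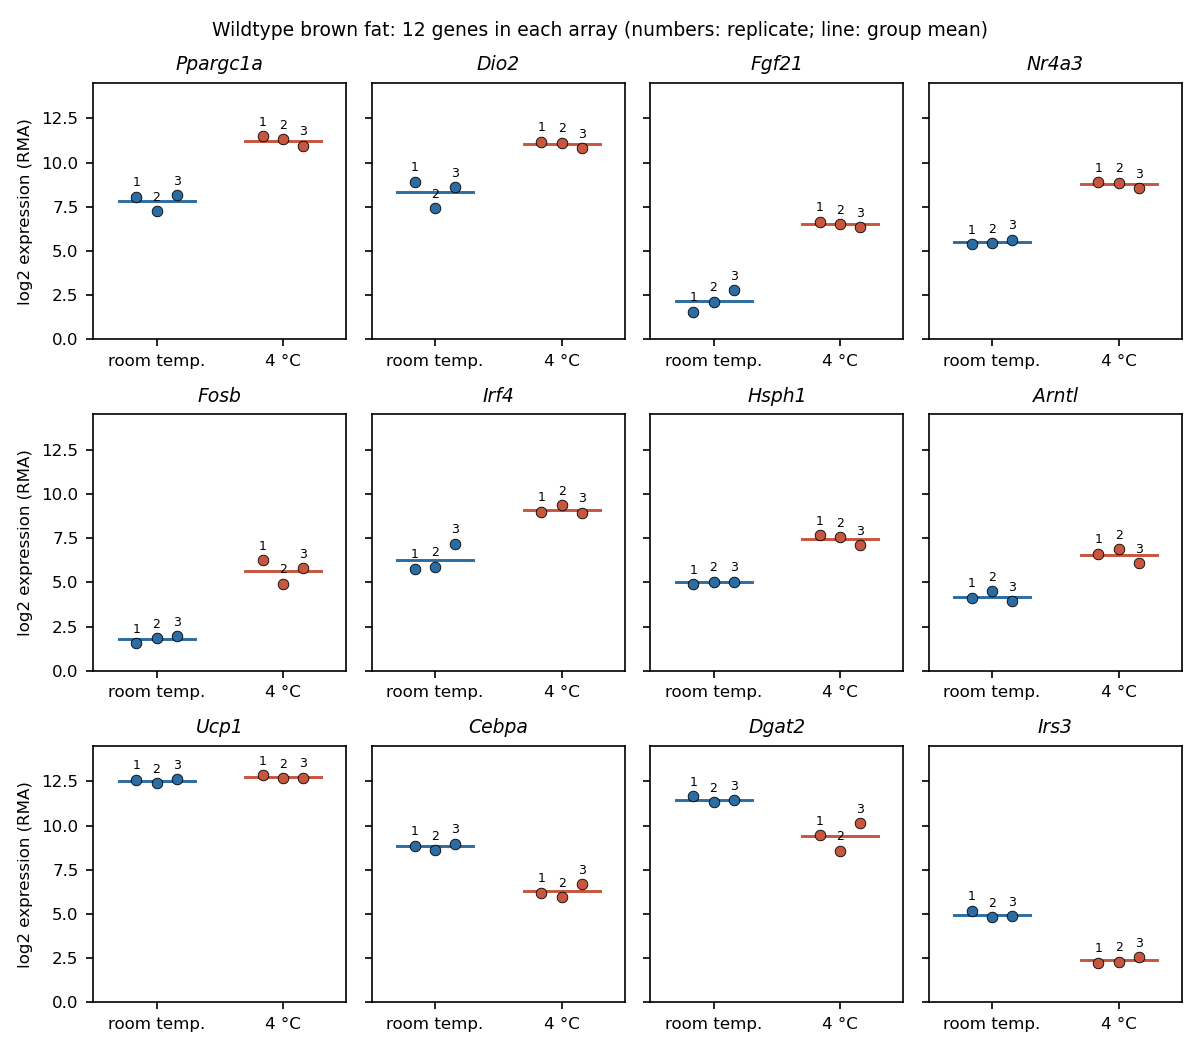
Log2 expression (RMA) of 12 genes in each of the 6 wildtype arrays, with replicate numbers beside the points and the mean of each group as a line. Ppargc1a, Dio2, Fgf21, Nr4a3, Fosb, Irf4, Hsph1 and Arntl lie higher in all 3 arrays at 4 °C, Cebpa, Dgat2 and Irs3 lie lower, and Ucp1 lies between 12.38 and 12.83 in all 6.

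Of 24 genes of PGC1 coactivators, PPARs and estrogen-related receptors, 5 rose and 4 fell (median 0.04), and both counts lay between 2 and 6 when a wildtype array was left out, with 3 up and 2 down without replicate 1 or 2 of either group. Med1, the Mediator subunit that nuclear receptors contact, rose by 0.72 ± 0.12. Thra, a thyroid hormone receptor, fell from 4.97, 4.75 and 5.11 to 3.70, 3.81 and 3.85, a difference of -1.16 ± 0.12 (adjusted p = 0.00015). Esrrg, an estrogen-related receptor of oxidative tissues, fell by 1.00 (SE 0.15). Ppara, the fatty acid receptor, differed by -0.26 ± 0.17 (adjusted p = 0.428).

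Of 26 transcription factors of brown adipocyte identity, 4 rose and 6 fell, with a median of 0.02, and 2 rose without room temperature replicate 1 or 4 °C replicate 2. Irf4, a factor that partners PGC1-alpha in brown fat, read 5.77, 5.89 and 7.19 at room temperature and 8.94 to 9.39 in the 3 arrays at 4 °C, a 7.08-fold rise (2.82 ± 0.39, adjusted p = 0.000838). Room temperature replicate 3, the array with conflicting labels, lay highest in its group yet well below the cold arrays. Cebpa, a master regulator of adipocyte differentiation, fell 5.83-fold, from 8.87, 8.62 and 8.98 to 6.19, 5.95 and 6.70 (-2.54 ± 0.17, adjusted p = 1.02e-05). Ebf2 and Zic1, factors that mark the brown lineage, fell by 1.31 (SE 0.16) and 0.92 (SE 0.18) on the log2 scale. A second, dim Ebf2 probe set was not called (-0.09 ± 0.10, adjusted p = 0.682). Prdm16, a determinant of brown fate, read 5.31, 4.82 and 6.15 at room temperature and 4.80, 5.11 and 4.93 at 4 °C, with overlapping groups and a difference of -0.48 ± 0.25 (adjusted p = 0.288).

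Immediate early genes, which cells transcribe within minutes to hours of a signal from factors already present, were covered by a pair of lists. Of 29 NR4A, EGR, KLF and related genes, 13 rose and 0 fell, with a median difference of 0.85 against -0.01 over all probe sets. The rises numbered 7 without room temperature replicate 1 or 2 and 6 without 4 °C replicate 1, so the count rests on single arrays while the median stayed between 0.63 and 0.85. Nr4a3, an orphan nuclear receptor induced by cAMP, read 5.37, 5.43 and 5.65 at room temperature and 8.91, 8.87 and 8.55 at 4 °C (3.29 ± 0.17, adjusted p = 1.04e-06). Klf4, a zinc finger factor, rose by 2.12 ± 0.20 and Csrnp1, a nuclear factor of the AXUD family, by 1.88 ± 0.23.

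The array with conflicting labels decided calls of this kind in both directions. Nr4a1, a second NR4A receptor, read 6.28, 4.90 and 9.09 at room temperature and 9.90, 9.62 and 8.81 at 4 °C. Replicate 3 at room temperature thus lay above the lowest cold array, and the difference of 2.69 ± 0.83 was not called (adjusted p = 0.0582). Without that array it was 3.85 (adjusted p = 0.00265). Egr1, the early growth response factor, read 3.67, 4.35 and 6.20 at room temperature and 7.44, 5.40 and 5.84 at 4 °C, also with the highest room temperature reading in replicate 3. Its difference was 1.49 ± 0.60 (adjusted p = 0.152), and 2.22 without that array (adjusted p = 0.0204). For Junb, an AP-1 factor, the difference was 1.01 ± 0.31 (adjusted p = 0.059), and 1.33 without it (adjusted p = 0.0173). Klf2 and Klf6 went the other way. Their rises of 0.90 (adjusted p = 0.0192) and 0.65 (adjusted p = 0.0296) were lost without that array (adjusted p = 0.0725 and 0.105). Each of these rises was lost without any 1 of 4 wildtype arrays, this one included.

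Among AP-1 factors, dimers of Fos and Jun proteins, and the small Maf proteins, 8 of 15 were called higher and 0 lower, with a median of 1.01. Between 7 and 10 members rose when 1 wildtype array was left out. Fosb read 1.56, 1.87 and 1.97 at room temperature, below the array medians, and 6.27, 4.93 and 5.81 at 4 °C (3.87 ± 0.32, adjusted p = 4.42e-05). Fos rose by 2.21 ± 0.40, Fosl2 by 2.14 ± 0.23 and Jun by 1.16 ± 0.23. Nfil3, a related leucine zipper repressor, rose by 1.67 ± 0.38, a call lost without room temperature replicate 1 or 4 °C replicate 2 (adjusted p up to 0.0628).

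Of 21 feedback genes of MAP kinase signalling, 8 rose and 1 fell, with a median of 0.59. Spry4, a Sprouty inhibitor of receptor tyrosine kinases, rose from between 4.25 and 5.37 to between 6.23 and 7.45 (2.25 ± 0.34). Dusp16, a phosphatase of stress-activated kinases, rose by 2.11 ± 0.13, with readings of 5.02, 5.11 and 5.20 against 7.29, 7.28 and 7.09 (adjusted p = 7.55e-06). Dusp6, the phosphatase of ERK, rose by 1.93 ± 0.24, and by 2.80 ± 0.19 on its second probe set. The only member that fell was Mapk14, which encodes the kinase p38-alpha, by 0.74.

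**Figure D4:**
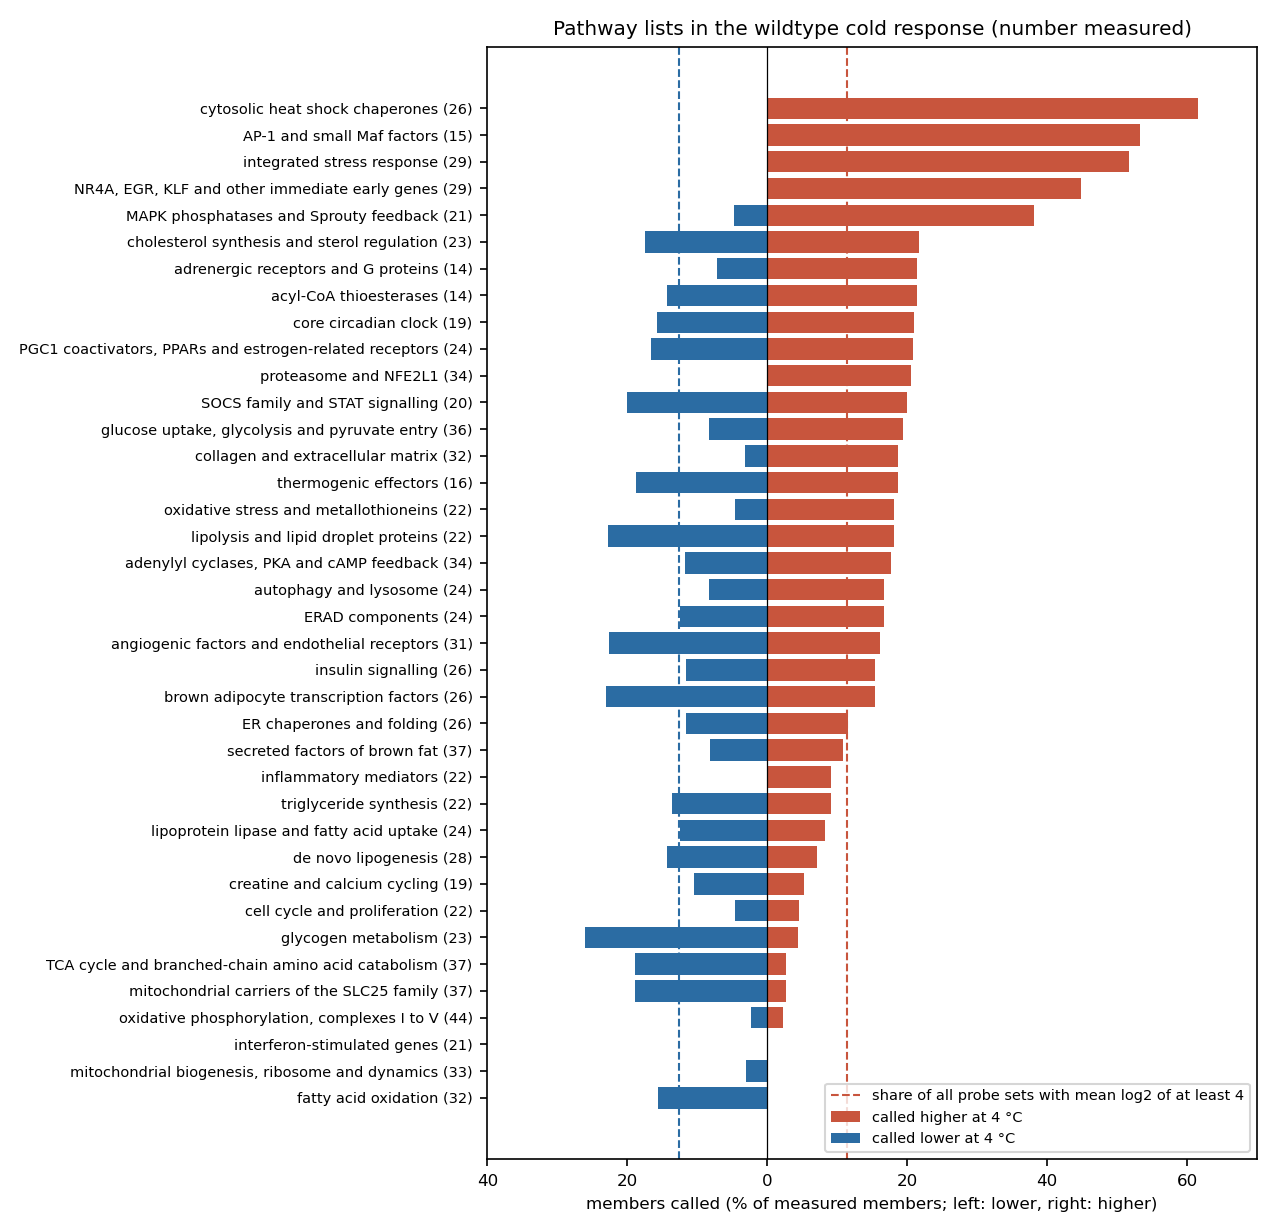
Share of measured members called higher (right, red) or lower (left, blue) at 4 °C for 38 gene lists, with the number measured in brackets and dashed lines at the shares among all probe sets with a mean of at least 4 (11.4% higher, 12.6% lower). Heat shock chaperones, AP-1 factors, the integrated stress response and immediate early genes reach farthest to the right with 0 members called lower, and glycogen metabolism reaches farthest to the left.

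Cytosolic heat shock chaperones, which refold proteins and are controlled by the factor HSF1, were measured for 26 genes. Of these, 16 rose and 0 fell, with a median of 0.77, and between 12 and 16 rose when 1 wildtype array was left out. Without 4 °C replicate 3, 2 members were called lower, and 1 was lower at an unadjusted p under 0.05 with all arrays. Hsph1, a nucleotide exchange factor of HSP70, read 4.91, 5.05 and 5.04 at room temperature and 7.69, 7.57 and 7.12 at 4 °C (2.46 ± 0.19, adjusted p = 2.94e-05). Its relative Hspa4l rose by 1.97 ± 0.27, the cochaperone Dnajb1 by 1.05 ± 0.16 and Hsp90aa1 by 1.05 ± 0.19. The abundant Hspa8 rose by 0.77 ± 0.11, from 10.60, 10.53 and 10.60 to 11.53, 11.35 and 11.15. Its other probe sets, which were dimmer, rose by 1.25 ± 0.17, 1.52 ± 0.13 and 1.52 ± 0.13. Each of these groups was free of overlap. The inducible HSP70 genes Hspa1a and Hspa1b are nearly identical copies whose probes may read both, and their readings at 4 °C, 6.93, 4.92 and 4.90 for Hspa1a, were highest in replicate 1. The rise of Hspa1a, 1.92 ± 0.51, was lost without replicate 1 or 2 at room temperature or replicate 1 at 4 °C (adjusted p up to 0.119). Cirbp, an RNA-binding protein named for its induction by mild cold in cultured cells, differed by -0.37 ± 0.19 (adjusted p = 0.275).

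Of 29 targets of the integrated stress response, the ATF4 program that raises amino acid supply, 15 rose and 0 fell, with a median of 0.84. At an unadjusted p under 0.05, 1 was lower. Between 14 and 15 rose without any 1 wildtype array. Atf4 itself read 6.78, 6.50 and 7.07 at room temperature and 8.55, 8.41 and 8.21 at 4 °C (1.61 ± 0.19, adjusted p = 0.000301). Mthfd2, a mitochondrial folate enzyme, rose by 3.01 ± 0.28, Slc7a1, a transporter of basic amino acids, by 2.79 ± 0.24, and Psat1 of serine synthesis by 1.16 ± 0.19 from readings near background. The pseudokinase Trib3 rose by 1.91 ± 0.28 and Sesn2, a sestrin, by 1.67 ± 0.21. Atf3, an early response factor and an ATF4 target, rose from 3.67, 3.30 and 3.14 to 7.64, 6.92 and 6.75 (3.73 ± 0.28). Ddit3, which encodes CHOP, read 5.13, 4.87 and 4.54 against 5.20, 5.00 and 5.18 and was not called (0.28 ± 0.14, adjusted p = 0.279).

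Chaperones of the ER lumen form a separate list. Of 26 genes of ER chaperones and folding, 3 rose and 3 fell, with a median of -0.08, and of 24 ERAD components 4 rose and 3 fell, with a median of 0.02. The falls numbered 0 to 4 and 1 to 3 when 1 wildtype array was left out, with 0 of ER chaperones without room temperature replicate 2 and 1 without 4 °C replicate 1 or 2, and 1 of ERAD without 4 °C replicate 2. Dnajb9, a BiP cochaperone, read 8.23, 7.85 and 7.88 at room temperature and 9.01, 9.05 and 9.43 at 4 °C, and rose by 1.18 ± 0.18 (adjusted p = 0.00131). Atf6, a sensor of ER stress, rose by 0.83 ± 0.18. Hspa5, which encodes BiP, the main ER chaperone, read 6.82, 6.83 and 6.89 against 7.31, 7.31 and 7.13, and its difference of 0.41 ± 0.14 was not called (adjusted p = 0.0808). Os9, a lectin of ERAD, fell by 0.51 (SE 0.11). Sel1l, the gene the study deletes in other mice, read 7.37, 6.96 and 7.23 against 6.99, 6.69 and 7.04 and was not called (-0.28 ± 0.14, adjusted p = 0.28). Its partner Syvn1, the ligase Hrd1, differed by 0.04 ± 0.23.

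Proteasome subunits had 7 of 34 called higher and 0 lower, with a median of 0.22 and Psma1 (0.75 ± 0.14) as the largest. Only 4 were called without room temperature replicate 3 or 4 °C replicate 1 or 2. Nfe2l1, the factor that drives proteasome genes in brown fat in the cold, differed by -0.10 ± 0.13 (adjusted p = 0.758). Hmox1, the haem oxygenase of the oxidative stress list, read 6.71, 6.63 and 6.52 at room temperature and 9.13, 8.82 and 8.88 at 4 °C, a rise of 2.33 ± 0.34. The metallothioneins Mt2 and Mt1, whose sequences are alike, rose by 1.00 ± 0.13 and 0.58 ± 0.11.

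Dgat2, which completes triglyceride synthesis, read 11.65, 11.31 and 11.43 at room temperature and 9.44, 8.58 and 10.13 at 4 °C, a 4.23-fold fall (-2.08 ± 0.35, adjusted p = 0.00263). The 4 °C reading was highest in replicate 3 and lowest in replicate 2, in the order of the muscle score, and the call held with that score as a covariate (adjusted p = 0.0019). Of 22 genes of lipolysis and lipid droplets 4 rose and 5 fell, with a median of -0.18, and 2 rose without room temperature replicate 2 or 4 °C replicate 1. Plin2, the coat protein that follows stored fatty acid, rose from 9.79, 9.54 and 10.00 to 11.07, 11.13 and 11.07 (1.31 ± 0.12, adjusted p = 7.01e-05). Hilpda rose by 1.39 ± 0.15 and G0s2 fell by 1.13 (SE 0.12), both of them inhibitors of the lipase ATGL. The lipases themselves differed little, with Lipe, hormone-sensitive lipase, down by 0.53 (SE 0.11) and Pnpla2, which encodes ATGL, not called at -0.04 ± 0.10 (95% interval -0.27 to 0.18).

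Of 24 genes of lipoprotein lipase and fatty acid uptake 2 rose and 3 fell. Lipg, endothelial lipase, rose by 1.57 ± 0.27, and Slc27a1, a fatty acid transporter, fell by 1.30 (SE 0.26). Lpl, lipoprotein lipase, differed by 0.25 ± 0.12 (adjusted p = 0.234), though its second probe set was called higher (0.46 ± 0.13, adjusted p = 0.0314), and Cd36, the fatty acid receptor, by 0.03 ± 0.11 (adjusted p = 0.918). Of 14 acyl-CoA thioesterases 3 rose and 2 fell, and 0 to 1 fell without any of 5 arrays. Acot5, a peroxisomal thioesterase of a cluster of similar genes, read 3.28, 2.75 and 2.82 against 5.60, 5.08 and 5.07 (2.30 ± 0.22).

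Of 28 genes of fatty acid synthesis 2 rose and 4 fell, and 2 fell without any 1 of 5 wildtype arrays. Without 4 °C replicate 3, 4 rose and 4 fell. Scd3 rose by 2.25 (adjusted p = 0.000315), the largest difference of this list. Srebf1, the factor that switches on lipogenesis under insulin, fell from 6.24, 5.42 and 6.07 to 4.04, 4.23 and 4.42 (-1.68 ± 0.22, adjusted p = 0.000585). Fasn, the synthase, read 10.86, 11.29 and 10.62 at room temperature and 11.25, 10.01 and 11.72 at 4 °C. These groups overlap fully, and the difference of 0.07 ± 0.52 has a 95% interval of -1.06 to 1.21, too wide to say whether Fasn changed. In cholesterol synthesis 5 of 23 rose and 4 fell, with 3 rises without room temperature replicate 1 or 2 or 4 °C replicate 2 or 3 and 2 falls without room temperature replicate 1 or 3 or 4 °C replicate 1 or 2. Fdft1, squalene synthase, fell by 1.73 (SE 0.38) and Cyp51, a later step, rose by 0.93 ± 0.20.

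Of 36 genes of glucose uptake, glycolysis and pyruvate entry 7 rose and 3 fell, with 3 to 4 rising without replicate 1 or 2 of either group. Pfkp, the platelet form of phosphofructokinase, read 7.73, 7.37 and 8.11 against 9.65, 9.23 and 9.09 (1.59 ± 0.19). Hk2, a hexokinase, and Slc2a1, the transporter GLUT1, each rose by 1.12 (SE 0.19 and 0.18). A second, dim Slc2a1 probe set was not called (0.16 ± 0.14, adjusted p = 0.591), and Slc2a4, the insulin-responsive GLUT4, differed by -0.10 ± 0.18. Trarg1, a regulator of GLUT4 trafficking, fell by 2.12 (SE 0.26), from 9.67, 9.43 and 9.88 to 7.32, 7.66 and 7.64.

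Irs3, an adipocyte substrate, read 5.18, 4.83 and 4.87 at room temperature and 2.25, 2.30 and 2.57 at 4 °C, close to background, a fall of at least 6.01-fold if those are background (-2.59 ± 0.14, adjusted p = 1.92e-06). Irs2 rose by 1.78 ± 0.34, from 6.80, 7.07 and 8.10 to 9.50, 9.26 and 8.56. Pik3r1, the regulatory subunit of PI 3-kinase, fell by 2.11 (SE 0.32) and the kinase Akt2 by 0.99 (SE 0.17). Of the whole list of 26, 4 rose and 3 fell. In the growth hormone branch Socs2 rose, as given above, and Stat5a, the factor it restrains, fell by 1.37 (SE 0.25).

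In glycogen metabolism 6 of 23 genes fell and 1 rose, with a median of -0.36. The falls numbered 3 without replicate 1 of either group and 8 without 4 °C replicate 3, and the median ranged from -0.61 to -0.12. The 1 rise was lost without any of 5 arrays. Ppp1r3b, a subunit that targets a phosphatase to glycogen, read 7.30, 6.51 and 6.90 against 5.45, 4.57 and 5.42 (-1.76 ± 0.27, adjusted p = 0.00144). Pygb, the brain form of glycogen phosphorylase, fell by 1.17 (SE 0.26). The synthase Gys2 differed by 0.13 ± 0.21 (adjusted p = 0.799).

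Of 44 genes of oxidative phosphorylation, Cox10 rose by 0.38 and Sdhc fell by 0.37, with a median of -0.10 and 1 higher and 6 lower at an unadjusted p under 0.05. The Cox10 call was lost without each of the 6 arrays in turn and that of Sdhc without 5 of them (adjusted p up to 0.123 and 0.11). Fatty acid oxidation had 0 of 32 up and 5 down with a median of -0.27, and the falls ranged from 1 without room temperature replicate 1 or 4 °C replicate 2, over 2 without room temperature replicate 2 or 4 °C replicate 1, to 9 without 4 °C replicate 3. At an unadjusted p under 0.05, 2 were higher and 17 lower. Acad11, an acyl-CoA dehydrogenase, fell by 0.72 (SE 0.14). Of 37 genes of the TCA cycle and branched-chain amino acid catabolism 7 fell and 1 rose, with a median of -0.25 and 11 falls without 4 °C replicate 3. At an unadjusted p under 0.05, 1 was higher and 18 lower. Bcat2, the mitochondrial aminotransferase that starts branched-chain catabolism, fell from 7.37, 7.20 and 7.11 to 6.62, 6.31 and 6.57 (-0.73 ± 0.13).

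Mitochondrial carriers had 7 of 37 down and 1 up, Slc25a25, whose promoter is printed above. The falls numbered 4 without room temperature replicate 1 or 2. Slc25a42, the carrier of coenzyme A, fell from 9.43, 9.46 and 9.65 to 8.60, 8.25 and 8.24 (-1.15 ± 0.15, adjusted p = 0.000719). Of 33 genes of mitochondrial biogenesis, ribosomes and dynamics 1 was called, Polg2, an accessory subunit of the mitochondrial DNA polymerase, which fell by 0.99.

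Of 19 clock genes, whose products drive daily rhythms, 4 rose and 3 fell with a median of 0.41. The rises numbered 1 without room temperature replicate 1 and 2 without 4 °C replicate 1. Arntl, which encodes the activator BMAL1, read 4.14, 4.52 and 3.95 at room temperature and 6.62, 6.89 and 6.10 at 4 °C (2.34 ± 0.41, adjusted p = 0.00297). Per3, a period gene of the opposing arm, read 6.04, 5.85 and 5.46 against 3.70, 3.37 and 4.17 (-2.03 ± 0.21, adjusted p = 0.000159), and Tef, an output factor, fell by 0.90 (SE 0.15). A second, dim Tef probe set was not called (-0.51 ± 0.21, adjusted p = 0.169). Nr1d1, the repressor REV-ERB-alpha, had overlapping groups and differed by -0.06 ± 0.35 (adjusted p = 0.961). The labels used here give no hour of collection, and the part of the hour in these values was not tested.

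Secreted and vascular factors closed the response. Besides Fgf21, Fst, the activin antagonist follistatin, rose from 2.96, 3.75 and 3.22 to 5.53, 5.56 and 5.50 (2.22 ± 0.20), and Edn1, endothelin, rose by 1.51 ± 0.18. Lep, leptin, read 3.17, 6.56 and 2.58 at room temperature and 2.08, 2.23 and 2.34 at 4 °C. Its difference of -1.89 ± 0.75 (adjusted p = 0.146) goes with 1 high array, room temperature replicate 2. Of 31 angiogenic factors and receptors 5 rose and 7 fell. Angpt1, angiopoietin, the stabilising ligand of vessels, showed the largest fall of any named gene, from 5.23, 5.99 and 5.93 to 2.81, 2.41 and 2.63 (-3.10 ± 0.27, adjusted p = 7.01e-05), and its dim second probe set fell by 0.49. Its receptor Tek fell by 0.91 (SE 0.17) and Aplnr, the apelin receptor of endothelium, by 2.17 (SE 0.21). Pgf, placental growth factor, rose from 2.30, 2.75 and 2.51 to 5.98, 5.82 and 4.24 (2.83 ± 0.47), and Vegfa differed by 0.39 ± 0.17 (adjusted p = 0.204).

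Among endothelial markers Cldn5, a tight junction protein, rose by 1.89 ± 0.33 while Emcn, endomucin, fell by 1.05 (SE 0.15), and the 4 rises numbered 1 without replicate 1 or 2 of either group. Of 32 matrix genes 6 rose and 1 fell, with 3 rises without replicate 1 or 2 of either group. They included Adamts1, a matrix protease (2.19 ± 0.32), and Col4a1, a basement membrane collagen (1.46 ± 0.23). Among the largest falls outside the lists, Ano1, a calcium-activated chloride channel, fell by 2.50 (SE 0.37), the tetraspanin Tspan18 by 2.40 (SE 0.35) and Napepld, which makes N-acylethanolamines, by 2.22 (SE 0.21). Cd274, the immune checkpoint ligand PD-L1, fell by 2.14 (SE 0.22), from 8.05, 7.05 and 7.91 to 5.42, 5.53 and 5.63. Of 21 interferon-stimulated genes limma called 0, with 1 higher and 2 lower at an unadjusted p under 0.05 and a median of 0.05.

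The same contrast in Sel1L-deficient littermates, on separate arrays, is given beside these changes. In that contrast 2122 of the 23521 probe sets were called in either direction. Of the 2606 wildtype calls, 1134 were also called there with the same sign. Of the 15 largest wildtype rises 14 were also called there and of the 15 largest falls 13, and all 30 had the same sign. Fgf21 rose by 4.27 ± 0.35 in Sel1L-deficient fat and Nr4a3 by 3.55 ± 0.17. Ppargc1a rose by 1.85 ± 0.25 there against 3.41 in wildtype, and this difference of 1.56 ± 0.36 did not pass the test (adjusted p = 0.106). The difference between the cold responses was called for 72 probe sets, 0.306% of those tested, of which 33 were called in the wildtype contrast. That count ranged from 21 to 123 when 1 of the 12 arrays was left out, highest without wildtype 4 °C replicate 3.

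Plk3 rose by 4.66 in wildtype and by 1.60 ± 0.20 in Sel1L-deficient fat, a difference of 3.06 ± 0.28 (adjusted p = 0.000515). Atf5, an ATF4 target, rose by 1.21 ± 0.11 in wildtype, from 6.89, 7.10 and 6.93 to 8.18, 8.27 and 8.11, against 0.05 ± 0.11. In Sel1L-deficient fat its mean was already 8.61 at room temperature and was 8.66 at 4 °C, both above the wildtype mean of 8.19 at 4 °C. Npas2, a partner of BMAL1, rose by 0.75 ± 0.19 from background in wildtype and by 3.74 ± 0.19 in Sel1L-deficient fat. Its small wildtype rise was lost without any 1 of 5 wildtype arrays (adjusted p up to 0.0947), while the difference of -3.00 ± 0.28 held without each of the 12. Of the 26 genes of ER chaperones and folding, 17 rose in Sel1L-deficient fat against 3 in wildtype, and 8 of them differed by the test of the difference. Of the 26 heat shock chaperones, 5 rose there against 16 in wildtype, and limma called 0 by that test, with 10 at an unadjusted p under 0.05. The median difference of that list was 0.31 there and 0.77 in wildtype.

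**Figure D5:**
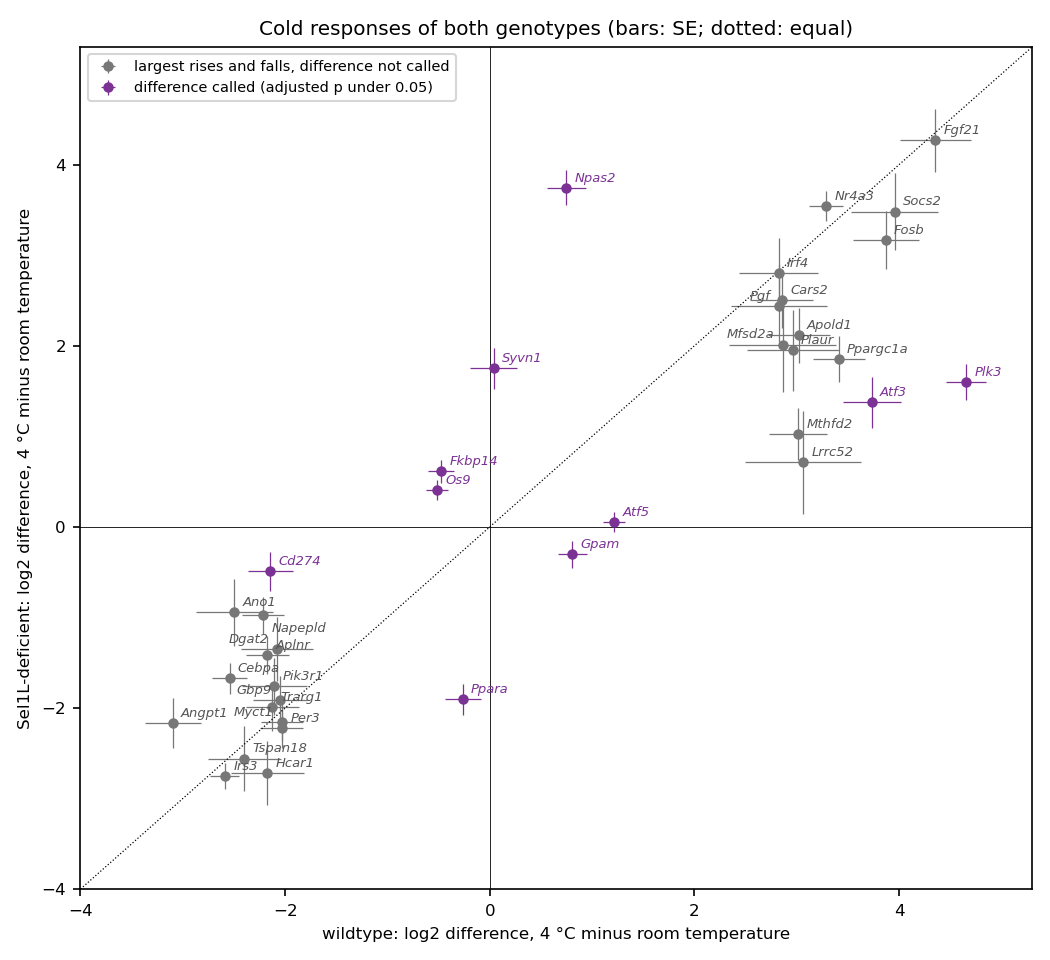
Log2 cold response in Sel1L-deficient fat against that in wildtype fat for the 15 largest wildtype rises, the 15 largest falls and the named genes whose responses differ, with SE bars and a dotted line of equal response. Most points follow the line in sign, and Plk3 (a difference of 3.06), Atf5 (1.21 against 0.05) and Npas2 (0.75 against 3.74) lie off it.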

How the data were processed

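Brown adipose tissue was hybridised to whole-transcript expression arrays, 1 per mouse. The deposited table holds log2 expression values of 41345 probe sets, made by the authors with RMA per the submitters' processing notes. Its version: not given in the sources used here. Columns were matched by sample identifier and 0 were left over. The platform annotation named the genes, with 23521 probe sets of exactly 1 symbol, 1814 of several and 16010 unnamed, and only the first kind was tested. Gene starts came from RefSeq (GRCm38.p6). Groups came from the titles. The p-values reflect only how these arrays spread, and their number limits the precision.

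With limma 3.58.1 (R 4.3.3), lmFit took the 4 group means of the 12 arrays, followed by contrasts and eBayes (8 residual and 4.45 prior degrees of freedom, median SE 0.14). Adjusted p-values are Benjamini-Hochberg values from limma over 23521 probe sets, except in the alternatives that change which probe sets are tested. The interaction was the wildtype minus the Sel1L-deficient cold response. The script was tested on simulated data. A gene with several probe sets is given by 1 of them, and others are named where they disagree. Same-numbered arrays did not deviate together (correlations of 0.02, -0.02 and -0.08), so numbers were not used as pairs.

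The 38 pathway and 11 marker lists (1222 entries) and all members were chosen with earlier results of these data known, and lists are described by counts and medians. Named genes are the 15 largest rises and falls among called probe sets without group overlap and with a higher group mean of at least 4, predicted genes left out, up to 8 called members per list by size, and fixed anchors, Sel1l and cell markers. Fewer are printed than the rule allows. Alternatives were the wildtype arrays alone, the replicate block, each array left out, the conflicting array moved, a brightness filter, all probe sets, 1 probe set per gene, the muscle score, repeated quantile normalization, another variance model and a threshold of 0.01. Figures were drawn with matplotlib 3.10.9.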

Additional observations from a re-analysis of the deposited data

Results flagged for a closer look

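For 10 named genes the cold response of wildtype fat differed from that of Sel1L-deficient fat by the interaction test in limma, adjusted over all 23521 probe sets. Differences are wildtype minus Sel1L-deficient on the log2 scale, n = 3 arrays per group. Each is followed by its adjusted p and by the highest adjusted p when 1 of the 12 arrays was left out.

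The difference was 3.058 for Plk3, a stress-responsive kinase (0.000515, up to 0.00357), -2.995 for the clock gene Npas2 (0.000515, up to 0.00357) and 1.161 for the transcription factor Atf5 (0.00893, up to 0.0346). These 3 held without each of the 12 arrays.

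The other 7 were lost without at least 1 array. They were 2.355 for Atf3, an early response factor (0.0314, up to 0.101), 1.64 for the fatty acid receptor Ppara (0.0188, up to 0.0793) and 1.113 for Gpam, which starts glycerolipid synthesis (0.0455, up to 0.124). The difference was -1.653 for Cd274, the checkpoint ligand PD-L1 (0.0474, up to 0.118). Among ER genes it was -1.714 for Syvn1, the ligase Hrd1 (0.0492, up to 0.123), -1.086 for the prolyl isomerase Fkbp14 (0.0298, up to 0.099) and -0.92 for the ERAD lectin Os9 (0.0294, up to 0.099). A positive difference need not be a wildtype rise. Ppara differed by -0.26 in wildtype, which was not called, and by -1.90 in Sel1L-deficient fat. Syvn1 differed by 0.04 and 1.75 in this order, Fkbp14 by -0.47 and 0.61, and Os9 by -0.51 and 0.41. Ppara was lost without 5 of the 12 arrays, Atf3 and Os9 without 9, Fkbp14 without 10, and Cd274, Gpam and Syvn1 without 11. All 10 kept their sign in every one of these fits.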

How the results depend on the processing

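The wildtype count of 2606 called probe sets (1140 higher, 1466 lower, 686 by at least 2-fold) ranged from 1608 to 2875 when 1 wildtype array was left out, with 713 to 1231 higher, 852 to 1644 lower and 566 to 921 by at least 2-fold. It was 1733 without room temperature replicate 1 (972 lower), 1718 without 4 °C replicate 1 (713 higher) and 1608 without 4 °C replicate 2 (756 higher, 852 lower). With room temperature replicate 3 counted as 4 °C, limma called 0 in either direction, 0 by 2-fold, and 3602 had an unadjusted p under 0.05. At an adjusted p under 0.01 there were 1205 (547 higher, 658 lower). Without both replicate 3 arrays, an alternative chosen after seeing the data, 1036 were called by at least 2-fold. The difference between genotypes (72 called) gave 26 to 123 without 1 wildtype array and 21 to 74 without 1 Sel1L-deficient array. It gave 17 with replicate 3 moved, 114 among probe sets with a mean of at least 4, 22 over all probe sets, 39 with the muscle score and 16 under 0.01. For this difference, the Sel1L-deficient arrays left out and the last 4 of these alternatives were chosen after seeing the data. With the replicate block, whose numbers do not pair the arrays, 2413 were called and 47 for the difference. Of 278 called genes of the lists and of the largest rises and falls together, 183 held without each wildtype array, and 0 reversed under any alternative. Dim readings limit folds from background, and detection per probe was not used here.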
